A study of Homo sapiens with 18 samples.

Results

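The immunoglobulin genes are the gene segments from which a B cell builds its antibody. They were taken as every gene of the count table whose deposited biotype is immunoglobulin constant (C), variable (V), joining (J) or diversity (D) gene, which gave 213 of 58735 genes. Immunoglobulin pseudogenes have other biotypes and were not members. The members comprised 113 heavy-chain genes, 52 kappa genes and 48 lambda genes, and 25 of them are orphons, copies that lie outside the 3 immunoglobulin loci. The cells were OCI-Ly18-GFP+, a long-established human line of diffuse large B-cell lymphoma (DLBCL) marked with green fluorescent protein. They were grown under the skin of NSG mice, an immunodeficient strain without B, T or NK cells of its own. The 3 vehicle mice (M_766, M_769 and M_770) and the 3 tazemetostat mice (M_767, M_768 and M_774) all carried the same line and all later received CART19 cells, T cells that carry a chimeric antigen receptor. Tazemetostat (EPZ6438), which blocks EZH2, the enzyme that trimethylates lysine 27 of histone H3, was given at 150 mg/kg daily by oral gavage, and dosing with drug or vehicle lasted 14 days from day 3 after implantation. Tumours were removed 11 days after the CART19 infusion and the GFP+ cells were sorted, so each value comes from a single cell line and from tumour cells left after CART19 exposure. The labels give neither the age of the mice, nor dosing after the infusion, nor whether each mouse received a separately grown culture.

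A developing B cell joins 1 V, 1 D and 1 J segment into a heavy-chain gene and 1 V and 1 J segment into a kappa or lambda light-chain gene, and the DNA between the joined segments is usually removed. The first heavy-chain isotypes, IgM and IgD, are read through IGHM and IGHD, and class switching replaces IGHM with an IGHG, IGHA or IGHE gene farther along the chromosome. Cells that descend from 1 B cell share its rearranged segments, and a tumour of B cells is commonly described by its isotype, its light chain and its V genes. In the germinal centre, from which many diffuse large B-cell lymphomas derive, the joined V genes are further mutated.

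The libraries held 16124494 to 26336269 counts, and the 3 libraries of each mouse (A, B and C, letters of unstated meaning) were summed to 55712115 to 69816184 counts per mouse. Levels are CPM, counts scaled by library total and TMM factor, and n = 3 mice per group. Markers of B cells were present in all mice, with a summed level over 8 genes of 2885 to 3442 CPM in vehicle mice and 3069 to 3116 CPM in tazemetostat mice. Of 12 T-cell markers CD3D and CD3G were at 0 counts in all 6 mice, and the summed level was 149 to 187 CPM in vehicle and 153 to 189 CPM in tazemetostat mice, carried mainly by TRBC2 and CD247. NK-cell markers (5 genes) summed to 15.4 to 16.9 CPM in vehicle and 13.4 to 14.3 CPM in tazemetostat mice, mainly from NCAM1 and PRF1. Markers of fibroblasts and endothelium (6 genes) summed to at most 5.70 CPM, mainly from COL1A2. Myeloid markers (5 genes) summed to at most 1.47 CPM and 3 haemoglobin genes to at most 0.0362 CPM. Library C of M_768 differed from libraries A and B of that mouse, and values without it are given below for the genes that were highest in it. Such tumour RNA does not separate fewer expressing cells from less RNA per cell.

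The leading V genes of each chain are shown first, as the germline sequence of the GENCODE 29 transcripts on build GRCh38 (hg38). These are reference sequences and not the mutated, rearranged sequence of the line, which a count table does not hold. In the V genes the capitals mark a match to TANTACTGT, the codons for 2 residues and the conserved cysteine before the third hypervariable loop. Because of their length the last 300 coding bases are given. This motif, searched on the coding strand, was present in 109 of 144 V genes (75.7%). IGLV6-57 is shown because it held most light-chain V counts, and IGLV5-52 because it was the only other V gene above 100 CPM. IGHV3-72 is shown because it led the heavy-chain V genes, at only 10.7 CPM on average and without dominating them.
IGLV6-57: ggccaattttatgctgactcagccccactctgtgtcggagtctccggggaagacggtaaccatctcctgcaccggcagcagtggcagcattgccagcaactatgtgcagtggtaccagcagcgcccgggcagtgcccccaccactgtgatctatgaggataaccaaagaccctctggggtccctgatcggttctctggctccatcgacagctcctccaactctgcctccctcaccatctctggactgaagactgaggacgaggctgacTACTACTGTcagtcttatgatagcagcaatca
IGLV5-52: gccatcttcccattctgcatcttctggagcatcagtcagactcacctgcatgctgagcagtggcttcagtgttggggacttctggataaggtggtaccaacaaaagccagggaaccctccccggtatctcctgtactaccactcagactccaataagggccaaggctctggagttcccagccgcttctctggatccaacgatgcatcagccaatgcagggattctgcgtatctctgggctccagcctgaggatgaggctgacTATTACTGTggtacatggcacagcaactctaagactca
IGHV3-72: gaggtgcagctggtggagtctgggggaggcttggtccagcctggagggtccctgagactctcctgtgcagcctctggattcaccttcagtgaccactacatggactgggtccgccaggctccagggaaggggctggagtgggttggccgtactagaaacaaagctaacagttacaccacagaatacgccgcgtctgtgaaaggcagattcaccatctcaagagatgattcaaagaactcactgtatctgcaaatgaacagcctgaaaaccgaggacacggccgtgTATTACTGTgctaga

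The J and D segments with the most counts are shown next, because they stand between the V gene and the constant gene in a joined chain. Capitals mark the motif TTNGG in light-chain J genes and TGGGG in IGHJ6, which encode the conserved phenylalanine or tryptophan and the glycine after it. On the coding strand the first motif was present in 12 of 12 light-chain J genes and the second in 6 of 6 heavy-chain J genes. No motif was searched in the D segments.
IGLJ7: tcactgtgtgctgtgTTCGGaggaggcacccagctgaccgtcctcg
IGLJ6: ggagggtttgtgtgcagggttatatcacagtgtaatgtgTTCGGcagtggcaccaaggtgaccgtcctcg
IGHJ6: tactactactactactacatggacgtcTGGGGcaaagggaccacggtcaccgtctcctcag
IGHD1-1: ggtacaactggaacgac
IGHD2-2: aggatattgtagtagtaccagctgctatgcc

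Immunoglobulin genes took 1.34%, 1.12% and 1.07% of all counts in the vehicle mice M_766, M_769 and M_770. In the tazemetostat mice M_767, M_768 and M_774 they took 1.06%, 1.20% and 1.12%. The highest and the second lowest share were both from vehicle mice, and the groups overlapped. The mean was 1.18% ± 0.141 (SD, n = 3) with vehicle and 1.13% ± 0.0692 (SD, n = 3) with tazemetostat, a difference of -0.0514 percentage points (two-sided exact permutation test, p = 0.6, smallest possible 0.1). Of 13 such shares compared, for chains, segment classes and lead genes, the groups did not overlap for the summed heavy-chain V genes and for the heavy-chain J genes. The heavy-chain V share was 0.00302% to 0.00357% with vehicle and 0.00281% to 0.00300% with tazemetostat, and the heavy-chain J share 7.42e-05% to 0.000101% and 0.000115% to 0.000139%. Both had an exact permutation p = 0.1, the smallest possible, which was 0.65 after Benjamini-Hochberg adjustment over the 13, and that of the total was 0.90. Heavy-chain genes made up 0.746% to 0.922% of all counts over the 6 mice, lambda genes 0.308% to 0.415% and kappa genes 0.000358% to 0.000526%. The output was thus concentrated on few members. Of the 213 members 127 had 0 counts in all mice, 86 had at least 1 count, 48 passed the filter on low counts and entered the test, and 30 reached a mean of 1 CPM.

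The dominant isotype was IgM. IGHM, the constant gene of the mu heavy chain, lies on chromosome 14 at 105851705 to 105856218 on the minus strand. It stood at 7902, 6369 and 6225 CPM in the vehicle mice M_766, M_769 and M_770. It stood at 6216, 7010 and 6287 CPM in the tazemetostat mice M_767, M_768 and M_774. The vehicle mouse M_766 was highest, the tazemetostat mouse M_768 came next, and the groups overlapped. By summed count IGHM ranked 4 among all genes. By counts per kilobase of the deposited gene length it ranked 8 among genes of at least 200 bases. Of its 50-base windows 0% recurred exactly in the transcript of another gene. Matches with mismatches, and sequence outside the transcripts, were not searched.

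IGHM took 83.2% to 84.8% of the counts of the 9 heavy-chain constant genes in single mice, and 84.5% to 85.8% when counts were divided by gene length. The lead was near constant over tumours, with a mean share of 84.0% ± 0.741 (SD, n = 3) with vehicle and 84.4% ± 0.369 (SD, n = 3) with tazemetostat. The difference of 0.40 percentage points was within the spread between mice (exact permutation test, p = 0.6, 0.96 after Benjamini-Hochberg adjustment over 6 classes). The 6 include the heavy-chain J class, where IGHJ6 held 100% in every mouse and no difference was possible. IGHD, the delta constant gene that naive B cells read together with IGHM, was far lower, at 74.3 CPM on average. The ratio of IGHM to IGHD counts per kilobase was 76.9 to 96.7 over the 6 mice.

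Constant genes of the switched isotypes had lower counts. IGHG4 followed IGHM with 632.2 to 767.3 CPM in vehicle mice and 631.7 to 646.1 CPM in tazemetostat mice, and it held 8.40% of heavy-chain constant counts over all mice. IGHA1, the constant gene of IgA1, held 2.66% and IGHA2, that of IgA2, 2.29%. IGHG3 held 0.742%, IGHG2 0.545%, IGHE 0.102% and IGHG1 0.0699%. The order of the 4 gamma genes thus had IGHG4 first and IGHG1 last, and per kilobase IGHG4 exceeded IGHG1 107-fold to 132-fold in every mouse. The gamma genes share part of their sequence with each other, as do IGHA1 and IGHA2. IGHE shares less, with 17.0% of its 50-base windows found in another gene. The share of 50-base windows found in another gene was 43.4% for IGHG4, 55.1% for IGHG1 and 34.3% for IGHA1, and IGHA1 and IGHA2 agreed at 96.9% of aligned bases. The division of counts among the gamma genes and between the alpha genes is therefore uncertain.

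**Figure D1:**
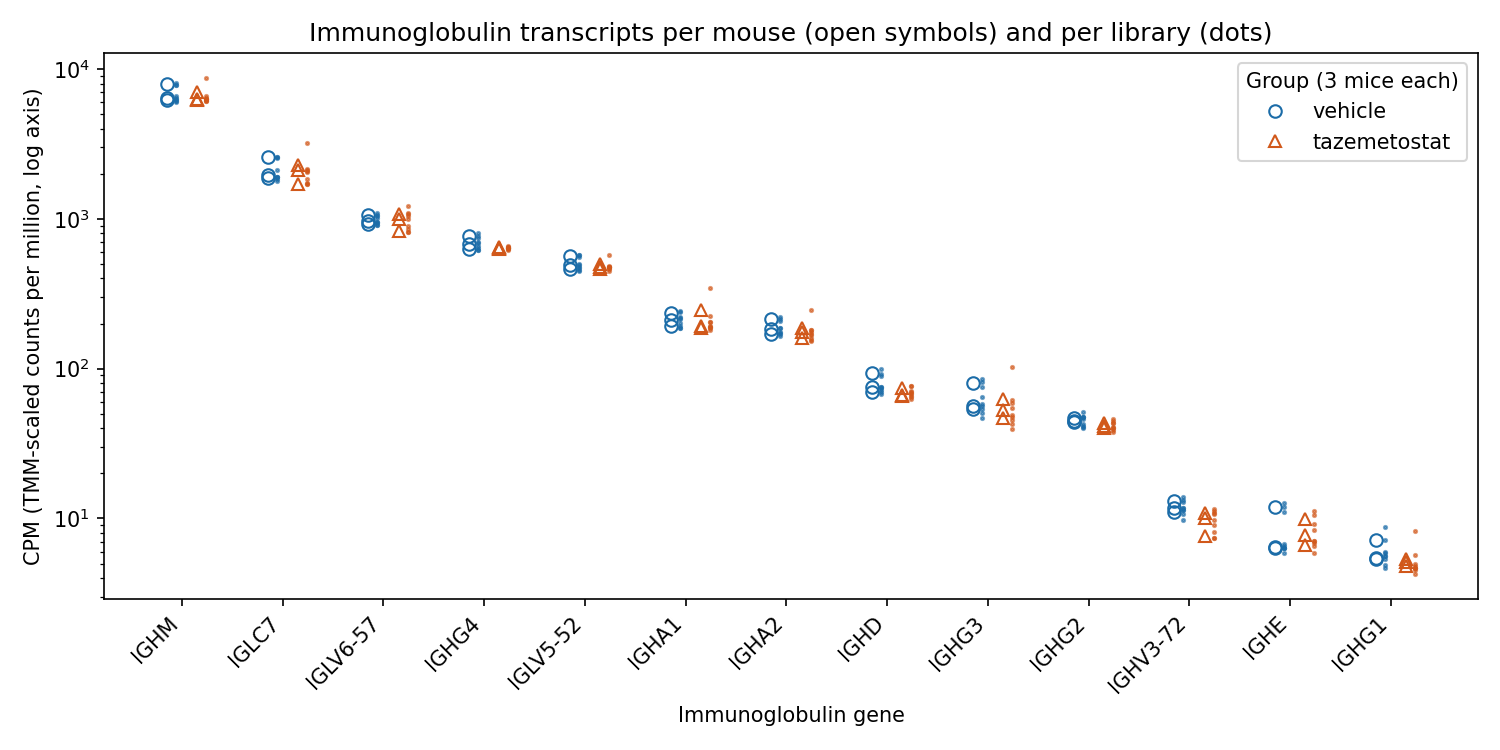
Level of 13 immunoglobulin genes in CPM (log axis) in each of 3 vehicle mice (blue circles) and 3 tazemetostat mice (orange triangles), with small dots for the single libraries. IGHM lies near 6668 CPM and IGLC7 near 2085 CPM, the symbols of the groups overlap for most genes, and the highest tazemetostat dot of IGHM and IGLC7 is library C of M_768.

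The light chain was lambda. IGLC7, a lambda constant gene on chromosome 22 at 22922594 to 22923034 on the plus strand, stood at 2578, 1956 and 1866 CPM in the vehicle mice M_766, M_769 and M_770. It stood at 1718, 2278 and 2113 CPM in the tazemetostat mice M_767, M_768 and M_774. The lowest value was from a tazemetostat mouse and the highest from a vehicle mouse, with overlap between the groups. IGLC7 held 99.987% to 99.997% of all light-chain constant counts in single mice. The remainder was IGLC3, with 73 counts over all mice.

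IGKC, the only kappa constant gene, had 0 counts in all 6 mice, of 374353258 counts in all. A count of 0 allows up to 3 counts, or 0.00801 CPM over all mice and 0.0538 CPM in the mouse with the fewest counts, for counting error only. IGLC1 and IGLC2, the other lambda constant genes among the members, were also at 0. All windows of IGLC1 recur in other genes, most often in IGLL5, and 66.1% of the windows of IGLC2 recur in other genes. Reads of these shared windows could be lost to counting rules. IGLC3, with 67.1% of its windows shared, had 73 counts. IGLC1 and IGLC2 also lie in a stretch of the locus, described below, in which 76 of 80 genes were at 0. Why IGLC1 and IGLC2 were at 0 was not tested. IGLC7 shares only 14.5% of its windows with other genes, most often with IGLC3, and 92.7% of its aligned bases match IGLC3. Per kilobase IGHM and IGLC7 were of similar level, with ratios of IGHM to IGLC7 between 0.701 and 0.853.

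A pair of lambda V genes carried nearly all V counts. IGLV6-57 (chromosome 22, 22195799 to 22196276, plus strand) stood at 1068, 969 and 929 CPM in the vehicle mice M_766, M_769 and M_770. It stood at 832, 1002 and 1072 CPM in the tazemetostat mice M_767, M_768 and M_774. The tazemetostat mice held both the lowest and the highest value. IGLV5-52 (chromosome 22, 22318727 to 22319226, plus strand) stood at 566, 488 and 460 CPM in vehicle mice and at 465, 499 and 478 CPM in tazemetostat mice, in the same order of mice. Vehicle mice held its lowest and its highest value.

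IGLV6-57 took 63.4% to 68.5% of all light-chain V counts. The mean was 65.6% ± 0.660 (SD, n = 3) with vehicle and 66.0% ± 2.54 (SD, n = 3) with tazemetostat, and the difference of 0.45 percentage points was within the spread between mice (exact permutation test, p = 0.7, 0.96 adjusted over 6 classes). Per kilobase IGLV6-57 exceeded IGLV5-52 1.92-fold to 2.41-fold in every mouse. The 2 V genes are distinct in sequence, with 64.1% identity over 348 aligned bases. No 50-base window of IGLV6-57 and 1.21% of those of IGLV5-52 recurred exactly in the transcript of another gene. The 2 genes thus share no exact 50-base window. The next lambda V genes, IGLV1-51 at 3.98 CPM, IGLV8-61 at 2.15 CPM and IGLV4-60 at 1.08 CPM on average, were far below them. Light-chain V counts in all equalled 63.9% to 76.4% of IGLC7 counts.

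Along the lambda locus the counts had a sharp edge. Segments were ordered by their coordinates, from the outer V genes to the constant genes. All 9 V genes from the outer end up to IGLV1-50 had at least 100 counts, 553675 in total. The 28 V genes beyond IGLV1-50, nearer to the constant genes, had 3 counts in total and 26 of them had 0. The silent stretch between the pseudogene ASH2LP3 and IGLC3 ran from 22341215 to 22906341 on chromosome 22, 565 kb with 80 genes of the table, 76 of them at 0 and 6 counts in all. It includes 33 immunoglobulin members, IGLC1 and IGLC2 among them, and genes that are not immunoglobulins, such as PRAME, which was at 0.

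At the other side of the stretch the counts returned over a short distance. IGLC3 had 73 counts, the pseudogene IGLC6 64986 and IGLC7 780722. Among J genes IGLJ7, which lies directly before IGLC7, had 1120 counts, IGLJ6 317 and IGLJ5 29, while IGLJ1, IGLJ2 and IGLJ3 had 0. IGLJ7 held 71.3% to 80.5% of light-chain J counts, with a difference of -2.58 percentage points between the groups (exact permutation test, p = 0.5, 0.96 adjusted). IGLC6 counts equalled 6.85% to 10.4% of those of IGLC7. IGLC6 matches IGLC7 at 94.2% of aligned bases. Outside the members, the locus also held VPREB1, a surrogate light chain of precursor B cells, with 65618 counts, and the unprocessed pseudogene AC245060.4, just before IGLV5-52, with 210490 counts. The state of the DNA over the silent stretch was not tested.

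**Figure D2:**
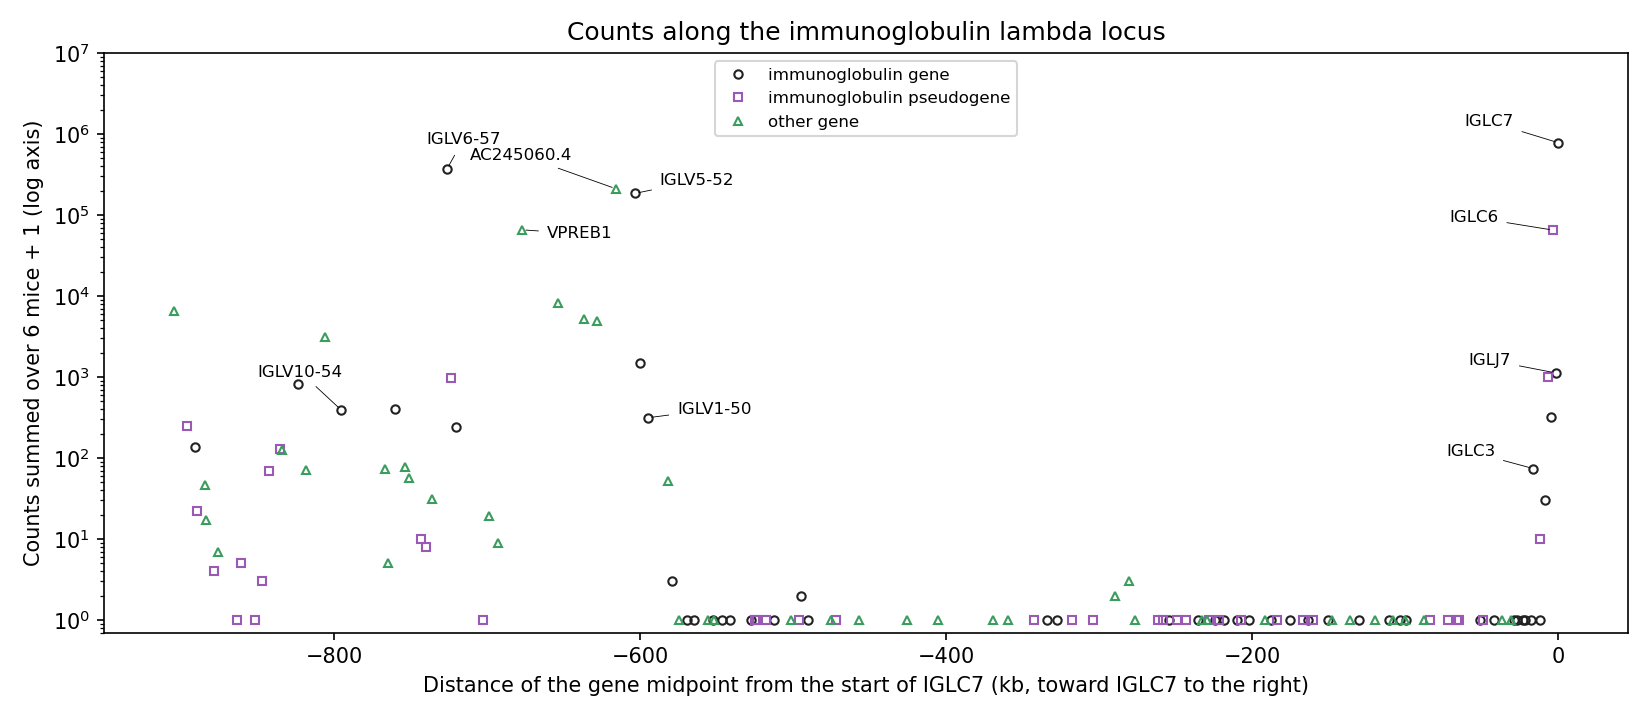
Counts summed over 6 mice plus 1 (log axis) for genes along the lambda locus, against the distance of the gene midpoint from the start of IGLC7 in kb, with immunoglobulin genes as circles, immunoglobulin pseudogenes as squares and other genes as triangles. Counts are high at the outer V genes, at or near 0 over the 565 kb before IGLC3, and highest at IGLC7.

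Counts on the heavy-chain V genes were few beside those of the abundant IGHM. All 61 heavy-chain V members together equalled 0.390% to 0.554% of the IGHM counts. IGHV3-72 (chromosome 14, 106790691 to 106791233, minus strand) led them with 10.99, 12.98 and 11.77 CPM in the vehicle mice M_766, M_769 and M_770. Its tazemetostat values were 10.01, 10.92 and 7.63 CPM in M_767, M_768 and M_774. The highest tazemetostat value lay just below the lowest vehicle value. IGHV3-72 held only 27.1% to 37.0% of heavy-chain V counts, and IGHV7-81, IGHV4-31, IGHV3-23 and IGHV3-30 followed at 11.5%, 9.09%, 8.90% and 7.31% over all mice. No heavy-chain V member thus dominated the counts as IGLV6-57 and IGLV5-52 did on the light chain. The share of 50-base windows found in another gene was 67.0% for IGHV3-30, 29.5% for IGHV3-23 and 23.2% for IGHV4-31. It was 10.8% for IGHV3-72 and 0% for IGHV7-81. By exact windows the division of counts is thus most uncertain for IGHV3-30 and less so for IGHV3-72 and IGHV7-81. Whether reads of a mutated V gene were counted on these gene models was not tested.

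The V pseudogene IGHV5-78, which is not a member, had 28196 counts, 1.97 to 2.81 times those of all heavy-chain V members together. The microRNA gene MIR5195 next to it had 16906. Among heavy-chain J genes IGHJ6 had all 400 counts and IGHJ1 to IGHJ5 had 0. Among D genes IGHD1-1 had 1282 counts and IGHD2-2 had 813, and 34 of 37 D genes had 0. IGHD1-1 lies within FAM30A, a long noncoding RNA gene on the other strand with 102519 counts. No source used here gives the strand setting of the counting, so reads of FAM30A and IGHD1-1 cannot be told apart.

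The heavy-chain locus also had stretches without member counts. Between IGHJ6 and IGHD2-2, 53.6 kb on chromosome 14 from 105863259 to 105916825, all 30 members were at 0. Between IGHD1-1 and IGHV3-23, over 349 kb, 16 members had 4 counts in all. Farther out, V genes with counts stood among V genes at 0, in no single block. On the kappa locus of chromosome 2 the lead V gene was IGKV2-30 with 694 counts, followed by IGKV1D-8 with 410, and IGKJ5 was the only kappa J gene with counts, 33 in all. Of the windows of IGKV2-30 85.3% recur in other genes, most often in its duplicated copy IGKV2D-30, so its count is uncertain. The 25 orphons had 59 counts together, with 20 of them at 0.

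**Figure D3:**
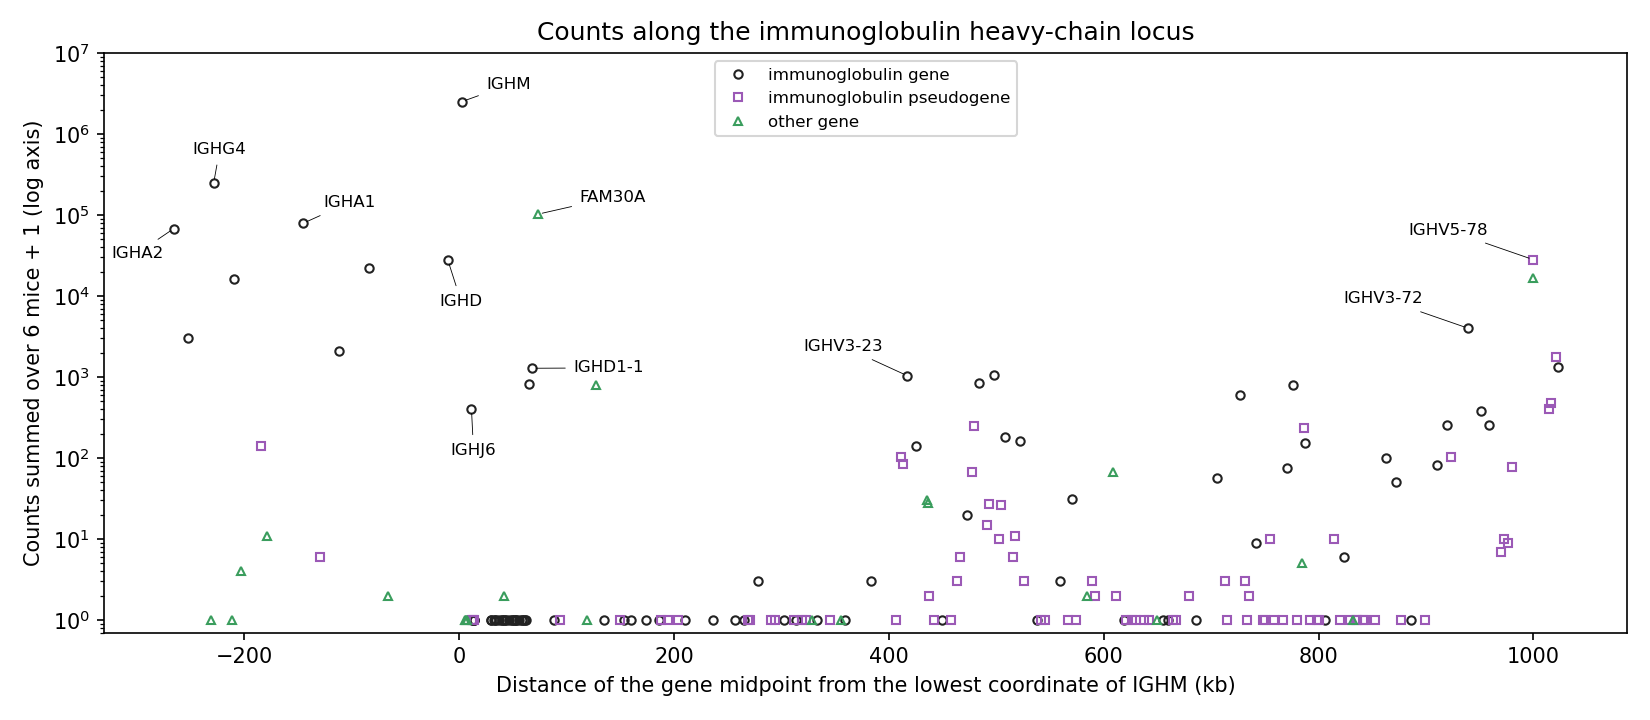
Counts summed over 6 mice plus 1 (log axis) for genes along the heavy-chain locus, against the distance of the gene midpoint from the lowest coordinate of IGHM in kb, with the same symbols as for the lambda locus. IGHM is highest with 2500900 counts, the genes between IGHJ6 and IGHD2-2 and the inner V genes lie at or near 0, IGHD1-1 and IGHD2-2 stand at 1282 and 813 counts, and single V genes and the pseudogene IGHV5-78 rise at the outer end.

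IGHM, IGLV6-57, IGLV5-52 and IGHG4 varied between tumours about as much as other abundant genes. On the log2 scale of CPM the SD between the 6 mice was 0.139 for IGHM, 0.138 for IGLV6-57, 0.108 for IGLV5-52 and 0.109 for IGHG4. For members under 100 CPM it was 0.184 for IGHD, 0.267 for IGHG3, 0.0773 for IGHG2, 0.250 for IGHV3-72 and 0.362 for IGHE. The median SD of the 2095 tested genes with at least 100 CPM was 0.125. IGLC7 varied more, with an SD of 0.211 that exceeded that of 85.2% of those genes. Within a mouse, the SD between libraries was 0.109 for IGHM, 0.179 for IGLC7 and 0.0662 for IGLV5-52, beside a median of 0.0869 over the same genes. Without library C of M_768 the SD within a mouse was 0.0386 for IGHM, 0.0604 for IGLC7 and 0.0313 for IGLV5-52, and the median 0.0463. Computed with and without that library from summed libraries and their scaled totals, the SD between mice was 0.142 and 0.135 for IGHM, 0.214 and 0.201 for IGLC7, and 0.168 and 0.119 for IGHA1.

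Library C of M_768 was the highest of all 18 libraries for IGHM (8738 CPM), IGLC7 (3229 CPM), IGLV6-57 (1212 CPM), IGHA1 (347 CPM), IGHA2 (244 CPM) and IGHG3 (103 CPM). The other libraries of that mouse had 6344 and 6579 CPM of IGHM and 1857 and 2079 CPM of IGLC7. Without that library the log2 fold change of IGHM was -0.11 rather than -0.07, that of IGLC7 -0.15 rather than -0.07, that of IGLV6-57 -0.06 rather than -0.03, that of IGHA1 -0.10 rather than -0.02, that of IGHA2 -0.17 rather than -0.12 and that of IGHG3 -0.36 rather than -0.23, and no member was called. The difference in the immunoglobulin share was then -0.0756 percentage points and that in the IGHM share 0.27, beside -0.0514 and 0.40 with it.

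With tazemetostat none of the 48 tested immunoglobulin genes passed the test at an adjusted p under 0.05 (edgeR quasi-likelihood F test, Benjamini-Hochberg adjustment over 20301 genes). Over all genes tested 7 passed, 0.0345%. At an unadjusted p under 0.05 there was 1 member of 48, against 6.55% of all genes tested. With DESeq2 and with no filter on low counts 1 member was called, IGLV10-54, described below. Fold changes on the log2 scale were positive for 16 members and negative for 32, with a median of -0.07 beside -0.01 for all genes tested. All 9 heavy-chain constant genes had a negative estimate, from -0.23 to -0.02 with a median of -0.12, and none of the 9 was called. They share the locus and the mice, so these are not 9 independent values. The gamma genes, and likewise the alpha genes, also share part of their sequence.

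For the clone's main genes the estimates were small, and the intervals bound them. IGHM had a log2 fold change of -0.07 (SE 0.127, edgeR adjusted p = 0.965), with a 95% interval of the fold, from the approximate SE and 4 degrees of freedom, of 0.746 to 1.22. IGLC7 had -0.07 (SE 0.150, edgeR adjusted p = 0.974), with an interval of 0.715 to 1.27. IGLV6-57 had -0.03 (SE 0.117, edgeR adjusted p = 0.983), with an interval of 0.783 to 1.23. These intervals leave out a rise or a fall of 1.5-fold in each of the 3 genes. The sign turned in 1 of 17 alternative settings for IGHM and in 2 of 17 each for IGLC7 and IGLV6-57. Leaving out 1 mouse at a time gave -0.13 to 0.06 for IGHM, -0.15 to 0.10 for IGLC7 and -0.10 to 0.07 for IGLV6-57. IGLV5-52 had -0.07 (SE 0.102, edgeR adjusted p = 0.953), with an interval of 0.783 to 1.16. IGHG4 had -0.12 (edgeR adjusted p = 0.900) and IGHD -0.21 (edgeR adjusted p = 0.831).

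Among the scarcer members the groups of 3 mice did not overlap for 2 that were higher with tazemetostat and 6 that were lower. Over all genes tested 6.58% were higher and 6% were lower without overlap. The 2 of 48 higher members lay below that background and the 6 of 48 lower members above it. Whether 6 of 48 exceeds its background was not tested. The members higher with tazemetostat were IGHJ6 and IGHV3-30. IGHJ6, the only heavy-chain J gene with counts, had 49, 58 and 50 counts with vehicle (M_766, M_769 and M_770) and 97, 78 and 68 with tazemetostat (M_767, M_768 and M_774). All its tazemetostat counts were above all its vehicle counts, yet its log2 fold change of 0.49 was not called (edgeR adjusted p = 0.764).

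The members lower without overlap were IGHG2, IGHD1-1, IGHV3-72, IGHV4-59, IGHV3-74 and IGLV10-54. For IGHV3-72 the log2 fold change was -0.32 (SE 0.149, edgeR adjusted p = 0.764). IGHV4-59 had -0.35 (edgeR adjusted p = 0.807), and 64.8% of its windows recur in other genes, most often in IGHV4-61. IGHV3-74 had -0.52 (edgeR adjusted p = 0.815). IGHV1-24, whose groups overlapped, had -0.90 (edgeR adjusted p = 0.816) at 0.368 CPM on average. Of the 17 heavy-chain V members tested 6 had a positive and 11 a negative estimate, with a median of -0.20.

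IGLV10-54 had the smallest p of the members. Its counts were 73, 64 and 141 with vehicle (M_766, M_769 and M_770) and 38, 33 and 43 with tazemetostat (M_767, M_768 and M_774). M_770 was the highest mouse, and all tazemetostat values were below all vehicle values. The log2 fold change was -1.43 (SE 0.359) with an edgeR adjusted p of 0.401. DESeq2 called it (-1.43, adjusted p = 0.0236), as did edgeR with no filter on low counts (-1.42, adjusted p = 0.000141). Over the alternatives its adjusted p ran from 0.000141 to 0.950, and without M_770 its log2 fold change was -0.91. Its gene model spans 22038643 to 22215270 on chromosome 22 and covers several other genes, IGLV6-57 among them, so the origin of its reads is uncertain.

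**Figure D4:**
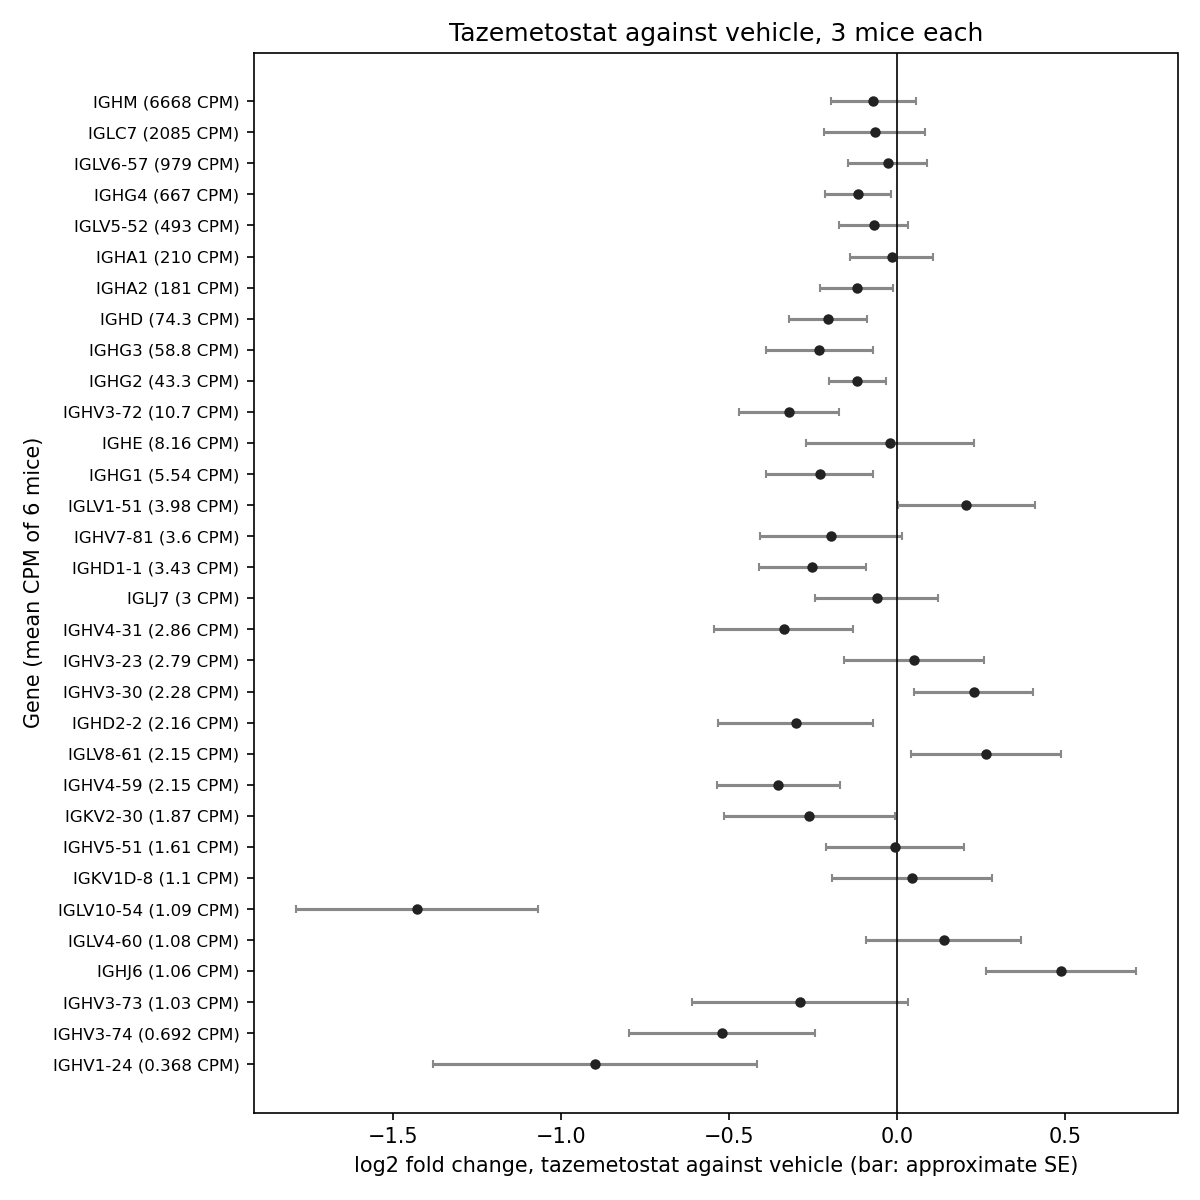
Log2 fold change of tazemetostat against vehicle for the named immunoglobulin genes that entered the test, with bars for the approximate SE (3 mice per group) and the mean CPM of 6 mice beside each name. The 10 genes of highest level lie between -0.23 and -0.02, and IGLV10-54 lies farthest from 0 at -1.43.

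The partner proteins of the B-cell receptor and the surrogate light chains were read beside the immunoglobulin genes. Of 10 listed genes 9 were tested and 0 were called, with 3 positive and 6 negative estimates and a median log2 fold change of -0.04. CD79A and CD79B, the signalling chains that carry surface immunoglobulin, had 281 ± 21.3 and 1120 ± 281 CPM (SD, n = 3) with vehicle and 298 ± 21.2 and 986 ± 123 CPM (SD, n = 3) with tazemetostat. IGLL1, which pairs with VPREB1 into the surrogate light chain of precursor B cells, ranged from 369 to 707 CPM with vehicle and from 454 to 525 CPM with tazemetostat. VPREB1, which lies within the lambda locus, had 185 ± 36.9 CPM (SD, n = 3) with vehicle and 165 ± 13.8 CPM (SD, n = 3) with tazemetostat (edgeR adjusted p = 0.895). Both surrogate genes were thus read beside the lambda genes, while IGLL5, which shares sequence with IGLC1, was at 0 in all mice.

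Transcription factors that act on immunoglobulin loci gave 11 positive and 7 negative estimates over 18 genes, 0 of them called, with a median of 0.04. POU2F2, the octamer-binding factor Oct-2, stood at 71.8, 74.3 and 91.0 CPM in the vehicle mice and at 107, 103 and 92.5 CPM in the tazemetostat mice. The groups did not overlap, and the log2 fold change of 0.35 was not called (edgeR adjusted p = 0.537). TCF3, which encodes the E-box factors E12 and E47, stood at 1138, 1099 and 1106 CPM in the vehicle mice and at 935, 921 and 878 CPM in the tazemetostat mice. The tazemetostat values were all lower, and the log2 fold change of -0.29 was not called (edgeR adjusted p = 0.523). SPIB, an ETS factor of B cells, had 0.23 (edgeR adjusted p = 0.835).

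Genes of V(D)J recombination, class switching and hypermutation gave 8 positive and 12 negative estimates over 20 genes, 0 of them called, with a median of -0.02. RAG1 and RAG2, which cut the segments for joining, were both read, at 512 ± 80.5 and 77.9 ± 10.6 CPM (SD, n = 3) with vehicle and 475 ± 33.5 and 68.0 ± 1.75 CPM (SD, n = 3) with tazemetostat. DCLRE1C, the nuclease Artemis that opens hairpin ends, had 0.12 (edgeR adjusted p = 0.898).

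The secretion and plasma-cell list gave 10 positive and 6 negative estimates over 16 genes, 0 of them called, with a median of 0.05. DERL3, an endoplasmic-reticulum protein of secretory cells, was at 3.15 ± 0.249 CPM (SD, n = 3) with vehicle and 2.10 ± 0.209 CPM (SD, n = 3) with tazemetostat. All its tazemetostat values were lower than its vehicle values, and it was not called (edgeR adjusted p = 0.478). XBP1, a factor of the secretory programme, stood at 107, 104 and 132 CPM in the vehicle mice and 128, 159 and 148 CPM in the tazemetostat mice. Its groups overlapped narrowly, and the log2 fold change of 0.35 was not called (edgeR adjusted p = 0.591). PRDM1, which encodes the plasma-cell factor BLIMP1, was at 4.49 ± 0.438 CPM (SD, n = 3) with vehicle and 5.98 ± 0.835 CPM (SD, n = 3) with tazemetostat. All its tazemetostat values were higher than its vehicle values, and it was not called (edgeR adjusted p = 0.674). JCHAIN, which links IgM and IgA units into polymers, ranged from 60.0 to 118 CPM with vehicle and from 57.1 to 78.0 CPM with tazemetostat, so both groups overlapped.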

How the data were processed

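The authors deposited whole-number read counts per gene for 18 libraries of 6 mice, unnormalized as far as the values and, per the file headers, the column names show. The submitters' processing notes name build hg38 and the tool DESeq2, without its role. Aligner, counter and strand setting: not given in the sources used here. The coordinates of the 213 members equalled those of GENCODE 29. The members and gene lists were chosen with earlier results of these data known.

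Counts were summed over the 3 libraries of each mouse, and the 58735 genes were filtered (edgeR 4.0.16 filterByExpr, minimum count 10) to 20301 and tested with its quasi-likelihood F test in R 4.3.3 (TMM, Benjamini-Hochberg, threshold 0.05). The approximate SE was taken as the size of the log2 fold change over the root of F. Shares of counts per mouse were compared by exact permutation, two-sided. P-values cover the spread between these mice, which may be technical. The steps were tested on simulated data. Chi-square tests over genes separated all 18 pairs of libraries from the same mouse, so none was counted as a repeat. Library letters did not pair the samples: after removing each mouse's mean, the correlation averaged -0.0079 for the same letter and 0.0040 for different letters in different mice.

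Genes named were members with a mean of at least 1 CPM, the lead gene of each class, the 6 members with the smallest p and the 3 list genes with the smallest p in each list. Neighbours in the loci and further list genes were named after their values were seen. Some genes that the rule selects are not reported here. Alternatives were other scaling factors and filters, DESeq2 1.42.0, limma-voom (limma 3.58.1), models over 18 libraries, and leaving out library C of M_768 or each mouse. The spread without that library was added after seeing the data.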

Additional observations from a re-analysis of the deposited data

How the results depend on the processing

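The count of immunoglobulin members called stayed at 0 under 15 of 17 alternatives and was 1 (IGLV10-54) with no filter on low counts and with DESeq2. The fit with the library letter as a replicate block called 0 members of 35 tested, and 190 genes in all. Over all genes the number of calls was 7 in the reported fit, 252 with no filter, 120 with DESeq2, 5 with limma-voom and 225 with the mouse as a random effect over 18 libraries. Without M_766 there were 26 calls over all genes, without M_770 59, without M_767 1, and without M_769, M_768 or M_774 0. Of 540 values of named genes under alternatives 509 kept direction and side of the threshold, 29 turned sign and 2 passed the threshold, both IGLV10-54, at -1.42 and -1.43. IGHE turned to 0.0394 with limma-voom, 0.0386 with the random effect and 0.0364 with the replicate block. IGHV5-51 turned to 0.0024 with library totals alone, 0.0045 with no filter, 0.0017 with DESeq2, 0.000379 with limma-voom and 0.0251 with the replicate block. Leaving out 1 mouse at a time gave log2 fold changes of -0.129 to 0.0572 for IGHM, -0.151 to 0.0712 for IGHA1, -0.194 to 0.356 for IGHE, -0.329 to 0.0643 for IGHV7-81, -0.132 to 0.202 for IGHV3-23, -0.105 to 0.113 for IGHV5-51, -0.582 to 0.0397 for IGHV3-73, -0.0662 to 0.182 for IGKV1D-8, -0.155 to 0.102 for IGLC7, -0.158 to 0.0823 for IGLJ7, -0.105 to 0.0715 for IGLV6-57, -0.128 to 0.0303 for IGLV5-52 and -0.0106 to 0.246 for IGLV4-60. The difference in percentage points ran from -0.104 to 0.0289 for the immunoglobulin share, -0.0281 to 0.650 for IGHM among heavy-chain constant genes, -0.00352 to 0.00147 for IGLC7 and -0.789 to 1.75 for IGLV6-57 among light-chain V genes. The causes of these changes were not tested. Members under 1 CPM rest on few counts, and 3 mice a group cannot give an exact p below 0.1.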
